A study of Mus musculus with 6 samples.

Results

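The genes described here encode the subunits of oxidative phosphorylation, in the mitochondrial genome and in the nucleus. Members were the protein-coding genes whose GENCODE M21 symbol begins as the standard names of these subunits do (mt-Nd, mt-Co, mt-Cytb, mt-Atp, the numbered Nduf genes, Sdha to Sdhd, Uqcr, Cyc1, Cox4 to Cox8 and Atp5), which gave 99 of the 54532 genes listed. Of these, 13 are mitochondrially encoded and 86 are nuclear. The choice used names only, so a subunit under another symbol, such as the acyl carrier protein Ndufab1, is not among them. RNA from whole mouse testis at postnatal day 9 was compared between wild-type mice and mice labelled Ppp6r3 cKO, with 3 libraries per group. The product of Ppp6r3 is 1 of the regulatory subunits that guide the catalytic subunit of protein phosphatase 6 to its substrates. The sources used here do not give the Cre line, the exons removed or any alleles that the wild-type mice carried. Nor do the labels say that the libraries came from separate animals, so the p-values cover the spread among these libraries only, and that spread may be technical.

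The respiratory chain passes electrons from NADH (complex I) or succinate (complex II) through ubiquinone to complex III, then through cytochrome c to complex IV, which reduces oxygen. Complexes I, III and IV pump protons out of the matrix as they work, and the ATP synthase (complex V) uses the returning protons to make ATP. Every complex except II is built from products of both genomes. The mitochondrial genome is transcribed as long polycistronic RNAs that are cut mostly at the tRNAs between the messages. mt-Atp8 and mt-Atp6 overlap (chrM:7766-7969 and chrM:7927-8607), as do mt-Nd4l and mt-Nd4 (chrM:9877-10173 and chrM:10167-11544), so no tRNA parts them. Each gene is called a message here. The nuclear subunits are made in the cytosol and imported. In the testis, spermatogonia and Sertoli cells are known to lean on glycolysis, and germ cells to use more oxidative phosphorylation as they enter meiosis.

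The authors deposited FPKM, a fragment count divided by exon length and by the depth of the library, so levels can be compared between genes as well as between libraries. Ppp6r3 itself was listed at 20.8, 21.3 and 21.0 FPKM in the wild-type libraries and at 15.8, 15.3 and 14.9 in the cKO libraries, a log2 fold change of -0.45 (SE 0.042, limma adjusted p = 0.000698). The libraries held 15970908 to 16606868 fragments, as inferred from the steps of the deposited values. The median log2 fold change over the 17673 genes tested was 0.00. Markers of the cell types of this whole organ differed between groups. Of 6 germ cell markers 4 fell and none rose, and their summed level ran from 481 to 491 FPKM in wild type and from 298 to 324 in cKO. The summed endothelial markers (22.1 to 23.7 in wild type, 32.0 to 35.9 in cKO) and macrophage markers (61.4 to 71.1 and 96.0 to 102) were higher in every cKO library, with 3 of 4 in each list rising and none falling. The Leydig sum (171 to 178 and 190 to 193) was higher through Hsd3b1, the 1 of its 5 markers that rose. Among the rest, which did not pass, Cyp17a1 and Insl3 had all cKO libraries below wild type and Star had all cKO libraries above. The summed erythroid markers (320 to 355 and 203 to 223) and myoid markers (573 to 599 and 482 to 511) were lower in every cKO library, with 3 of 5 and 1 of 3 falling, while the Sertoli sums (517 to 530 and 522 to 587) overlapped with 2 of 6 rising. No marker in these lists was at 0 in all libraries. In a bulk sample, fewer cells of a type and less RNA per cell cannot be told apart, and the part of these marker differences in the values below was not tested.

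Before the mitochondrial messages can be read, their near-identical copies in the nuclear genome have to be known, because fragments that match a gene and its copy equally well can be given to either, and how they were handled was not given. A block of 7 annotated pseudogenes on the minus strand of mouse chromosome 1, chr1:24611535-24616197 in GRCm38 (mm10), carries the mitochondrial segment from part of mt-Co1 to part of mt-Nd4. The first 60 bases of mt-Co2 (chrM:7013-7696, plus strand, a single exon) show what this means for a short read; they are the same, letter by letter, in the copy Gm28661, and so are all 681 bases aligned. The second pair starts at base 2 of mt-Nd3 and holds the 1 difference found over 345 aligned bases with Gm28438. The third pair, bases 677 to 736 of mt-Co1, is shown for contrast with a more distant copy on chromosome 2, Gm13340, which differs at 37 of 1545 bases and was listed below 1 FPKM in every library. Capitals mark the bases that differ within a pair, the sequences are from the GENCODE M21 transcripts, and all run 5′ to 3′.
mt-Co2: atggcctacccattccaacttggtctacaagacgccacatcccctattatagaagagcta
Gm28661: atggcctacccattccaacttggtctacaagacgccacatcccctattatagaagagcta
mt-Nd3: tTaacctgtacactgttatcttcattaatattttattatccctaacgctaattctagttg
Gm28438: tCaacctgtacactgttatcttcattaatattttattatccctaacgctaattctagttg
mt-Co1: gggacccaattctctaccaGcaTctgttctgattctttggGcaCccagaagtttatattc
Gm13340: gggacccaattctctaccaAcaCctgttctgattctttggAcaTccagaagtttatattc

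The copies split the 13 mitochondrial messages into 3 kinds. For mt-Co2, mt-Atp6, mt-Co3, mt-Nd3 and mt-Nd4l the chromosome 1 copy covers nearly the whole message, with 0 or 1 differing base. For mt-Co1 it covers 483 of 1545 bases, and for mt-Nd4 it covers 876 of 1378. For mt-Nd1, mt-Nd2, mt-Nd5, mt-Nd6, mt-Cytb and mt-Atp8 no annotated copy on chromosome 1 covered more than 21.1% of the message. mt-Atp8 nevertheless lies inside the segment that the block carries. Only annotated transcripts were searched, so an unannotated copy of mt-Atp8 there would have been missed. mt-Nd2 and mt-Nd5 had copies on chromosomes 2 and 13 (Gm13339 and Gm4076), 96.7% and 95.2% identical, which were listed at 0 in at least 5 of the 6 libraries. The levels followed the same split. The 5 messages with a whole copy were listed at 18.45 to 367 FPKM, while mt-Co1 and mt-Nd4 ran from 739 to 7659.9 FPKM. Of the 6 without such an annotated copy, mt-Nd1, mt-Nd2, mt-Nd5, mt-Nd6 and mt-Cytb all stood above 600 FPKM in every library. mt-Atp8, the shortest message, stood at 1.84 to 4.30. The copies of those 5 were listed at 14.1 to 202 FPKM. Gm28661 was at 76.8, 98.1 and 96.3 FPKM in wild type and 79.1, 71.8 and 202 in cKO, below mt-Co2 in 5 of the 6 libraries. The levels of these 5 messages are therefore uncertain, and are not ranked here against the other mitochondrial messages.

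**Figure D1:**
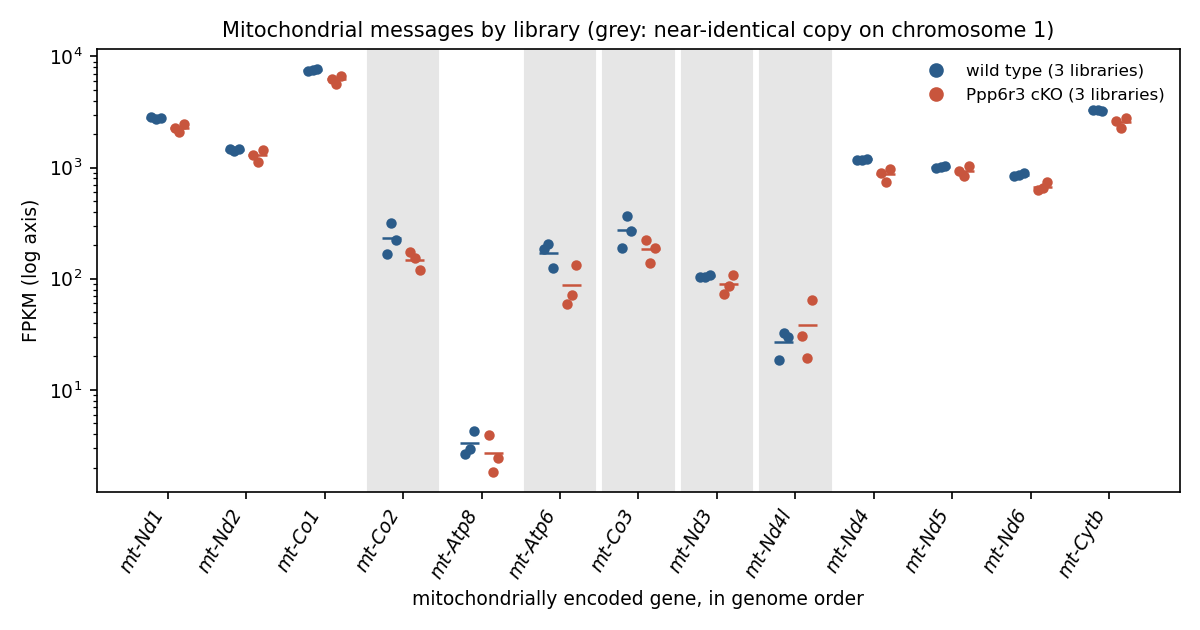
FPKM (log axis) of the 13 mitochondrially encoded members in genome order, 1 point per library and a line at each group's mean, with grey behind the 5 messages that have a copy over nearly their whole length. The grey messages lie at 18.45 to 367 FPKM, and the 5 members that fell (mt-Nd1, mt-Co1, mt-Nd4, mt-Nd6 and mt-Cytb) have all 3 cKO points below all 3 wild-type points.

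Of the 13 mitochondrial members 5 fell in cKO testis, none rose and 8 did not pass, against 7.83% of all tested genes that fell and 7.65% that rose (limma, Benjamini-Hochberg adjusted p under 0.05). The median of these 13 log2 fold changes was -0.31, against 0.00 for all genes, and 12 of the 13 values were negative. The messages are cut from shared transcripts and were measured in the same libraries, so these are not 13 independent values. Both genomes together had 11 of 97 tested members past the threshold (11.3%), against 15.5% of all genes. The 3 cKO libraries all lay below the 3 wild-type libraries in 5 of the 13 mitochondrial members, beside 18.2% of all tested genes. These were the same 5 that fell, so the separation is no further support for those calls. No mitochondrial member had all cKO libraries above, which 18.8% of tested genes did.

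Among the 5 that fell, the largest log2 fold change was that of a complex I message. mt-Nd4, a core subunit of the proton-pumping arm, was listed at 1181, 1176 and 1204 FPKM in wild type and at 900.3, 739 and 972 in cKO, a log2 fold change of -0.46 (SE 0.091, limma adjusted p = 0.0164). mt-Nd6, another membrane subunit and the only protein encoded on the light strand, was listed at 835, 864 and 888 FPKM in wild type and at 625, 657 and 741 in cKO (-0.36, SE 0.062, adjusted p = 0.00849). In both, every cKO library was lower than every wild-type library, and the second cKO library was lowest for mt-Nd4 while the first was lowest for mt-Nd6. mt-Nd6 lies opposite the heavy-strand transcript, and the strand setting of the counting was not given, so fragments of the 2 strands cannot be told apart there. mt-Nd1, whose product sits where ubiquinone enters, was listed at 2877, 2743 and 2796 FPKM in wild type and at 2258, 2075 and 2475 in cKO (-0.31, SE 0.061, adjusted p = 0.0136), again with no overlap.

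The 2 other long complex I messages had values that overlapped. mt-Nd2 was listed at 1477, 1418 and 1461 FPKM in wild type and at 1312, 1129 and 1436 in cKO (log2 fold change -0.18, adjusted p = 0.177), and mt-Nd5 at 995, 1020.4 and 1042 against 932, 844 and 1034 (-0.13, adjusted p = 0.243). In both, the third cKO library stood among the wild-type libraries and the second cKO library was the lowest. The short messages mt-Nd3 (103, 103 and 108 FPKM in wild type, 72.9, 86.7 and 107 in cKO, adjusted p = 0.232) and mt-Nd4l (18.45, 32.3 and 29.7 against 30.4, 19.2 and 64.5, adjusted p = 0.693) overlapped between groups. mt-Nd4l, in which 1 cKO library stood above all others, was the only mitochondrial member with a positive log2 fold change, 0.36. It overlaps mt-Nd4, which fell.

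mt-Cytb and mt-Co1, of complexes III and IV, both fell. mt-Cytb encodes cytochrome b, the mitochondrial subunit of complex III. It was listed at 3272, 3288 and 3244 FPKM in wild type and at 2644, 2256 and 2791 in cKO, a log2 fold change of -0.36 (SE 0.072, limma adjusted p = 0.0155). mt-Co1, the catalytic subunit of complex IV, was listed at 7444, 7578 and 7659.9 FPKM in wild type and at 6323, 5632 and 6687 in cKO (-0.29, SE 0.059, adjusted p = 0.0166). The groups did not overlap for either, the wild-type libraries lay within a coefficient of variation of 0.687% and 1.44%, and the cKO libraries spread further, with 10.8% and 8.63%.

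The other complex IV and V messages scattered too widely to pass. mt-Co2, which takes electrons from cytochrome c, was listed at 165, 318 and 221 FPKM in wild type and at 173, 154 and 119.6 in cKO (log2 fold change -0.62, adjusted p = 0.199). mt-Co3 was listed at 188, 367 and 267 against 224, 140.0 and 189.5 (-0.55, adjusted p = 0.296). The proton channel subunit mt-Atp6 had 186, 203 and 126 FPKM in wild type and 59.8, 71.2 and 134 in cKO (-1.02, SE 0.37, unadjusted p = 0.039, adjusted p = 0.136). The third cKO library of mt-Atp6 lay inside the wild-type range and the other cKO libraries lay below it. mt-Atp8 rested on few fragments and its values (2.66, 2.95 and 4.30 FPKM against 3.89, 1.84 and 2.43, adjusted p = 0.515) overlapped. The fragments of the near-identical copies were also added to their originals, an alternative chosen after seeing the data. The mt-Atp6 log2 fold change then stood at -0.71 (adjusted p = 0.0725) and that of mt-Co2 at -0.27. In that fit 5 mitochondrial members still fell, but this count could hardly move. mt-Nd1, mt-Nd6 and mt-Cytb had no copy to add, and mt-Co1 and mt-Nd4 stood at -0.29 and -0.45. Any discarded fragments could not be added back.

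Part of these calls did not hold with a single library left out. Such fits have fewer libraries, and over all tested genes the count that fell went from 1384 to between 638 and 1277. The log2 fold changes of the 5 mitochondrial members that fell stayed negative throughout. mt-Nd6 passed with each of the 6 libraries left out in turn, with adjusted p between 0.0037 and 0.0401. The count of mitochondrial members that fell was 4 without the first wild-type or the first cKO library, 2 without the second wild-type library, 1 without the third wild-type library, 5 without the second cKO library and 7 without the third cKO library. In the last of these mt-Atp6 (adjusted p = 0.0354) and mt-Nd3 (adjusted p = 0.0209) fell as well. mt-Nd4 passed in 2 of the 6 fits, mt-Cytb in 4, mt-Co1 in 4 and mt-Nd1 in 5, with the lost calls at adjusted p between 0.0503 and 0.0671.

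The mitochondrial members have a median GC content of 37.1% (31.9% to 41.1%), all inside the lowest of 10 equal bins of tested genes, which ends at 42.1%, whereas the median is 51.4% for the nuclear members and 50.1% for all tested genes. Over that lowest bin, the median deviation from a gene's own mean was 0.01, 0.03 and 0.06 on the log2 scale in the wild-type libraries and -0.11, 0.01 and 0.04 in the cKO libraries. For the mitochondrial members the same deviations were 0.11, 0.15 and 0.17 in wild type and -0.11, -0.28 and -0.03 in cKO. In another fit, the trends with GC content and length across genes were first subtracted from each library. This fit, called GC content and length below, gave a median mitochondrial log2 fold change of -0.15. In it 1 member fell, mt-Nd6 (-0.18, adjusted p = 0.0107), and mt-Nd1 stood at -0.15 (adjusted p = 0.21) and mt-Cytb at -0.21 (adjusted p = 0.178). These genes are themselves a part of the low-GC class, and how much of the difference base composition accounts for was not tested.

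Summed over the genome, the mitochondrial members reached 18745, 19113 and 19051 FPKM in the wild-type libraries and 15557, 13805 and 16755 in the cKO libraries. The cKO mean was 0.81 of the wild-type mean (18970 ± 197 and 15372 ± 1484, SD, n = 3 each), and no library of one group reached the other. The nuclear members summed to 6639, 6299 and 6237 FPKM in wild type and to 6490, 6436 and 6442 in cKO, a ratio of means of 1.01 with overlapping groups. In wild type the mitochondrial sum was 2.82, 3.03 and 3.05 times the nuclear sum, and in cKO it was 2.40, 2.14 and 2.60 times. These sums are a description with no test, and mt-Co1 alone makes up a large share of the mitochondrial one. The mitochondrial sum, and so the ratio, includes the 5 messages whose levels are uncertain because of their copies. The mitochondrial rRNAs, which are not members and are poorly captured by poly(A) selection, were at 111, 127 and 164 FPKM against 97.4, 117 and 116 for mt-Rnr1, and at 88.6, 98.6 and 117 against 65.0, 87.7 and 88.4 for mt-Rnr2 (adjusted p = 0.293 and 0.188). Of 12 mitochondrial tRNA genes tested none passed limma's adjusted threshold and 1 had an unadjusted p under 0.05, and their log2 fold changes ran from -0.65 to 0.23 with 5 above 0.

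**Figure D2:**
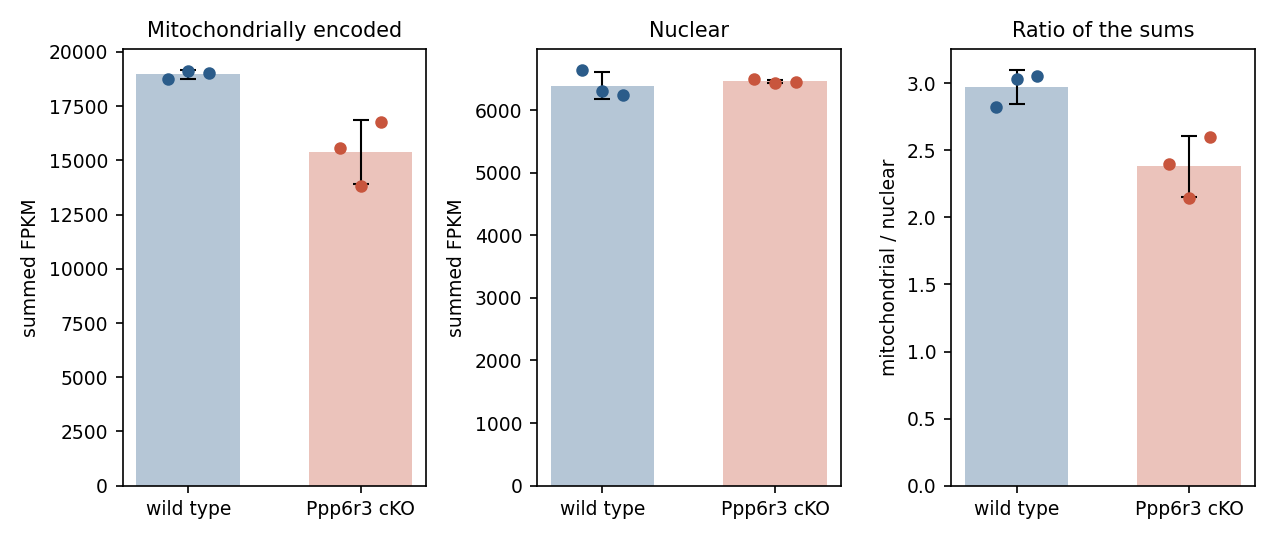
Summed FPKM of the mitochondrially encoded and of the nuclear members and the ratio of the sums, with bars at the group mean, error bars of 1 SD (n = 3) and 1 point per library. The mitochondrial sums lie at 18745 to 19113 in wild type and 13805 to 16755 in cKO, while the nuclear sums overlap. The mitochondrial sums include the messages whose levels are uncertain because of their copies.

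The nuclear members as a group stayed close to 0. Of the 84 tested, 5 fell (5.95%), 1 rose (1.19%) and 78 did not pass, shares below the 7.83% and 7.65% of all tested genes. Among protein-coding genes with a mean of at least 10 FPKM, 10.3% fell and 12.4% rose. The balance of the nuclear calls depended on the fit. With GC content and length trends subtracted 5 fell and 9 rose, and with a replicate block as well 1 fell and 11 rose. With voom on the recovered fragments 10 fell and 7 rose. The median log2 fold change was -0.02, and 73 of the 84 lay within 0.2 on the log2 scale of no difference. Among the 77 with a mean of at least 10 FPKM the size of the log2 fold change did not exceed 0.32. The median SE was 0.055, against 0.087 over all tested genes, so most of these values were measured more closely than a typical gene. The cKO libraries lay all below the wild-type libraries for 20 nuclear members and all above for 8, beside backgrounds of 18.2% and 18.8%. Cox8b, with 1 to 6 fragments per library, and another gene model named Atp5o, listed at 0 throughout, did not pass the filter on low values.

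**Figure D3:**
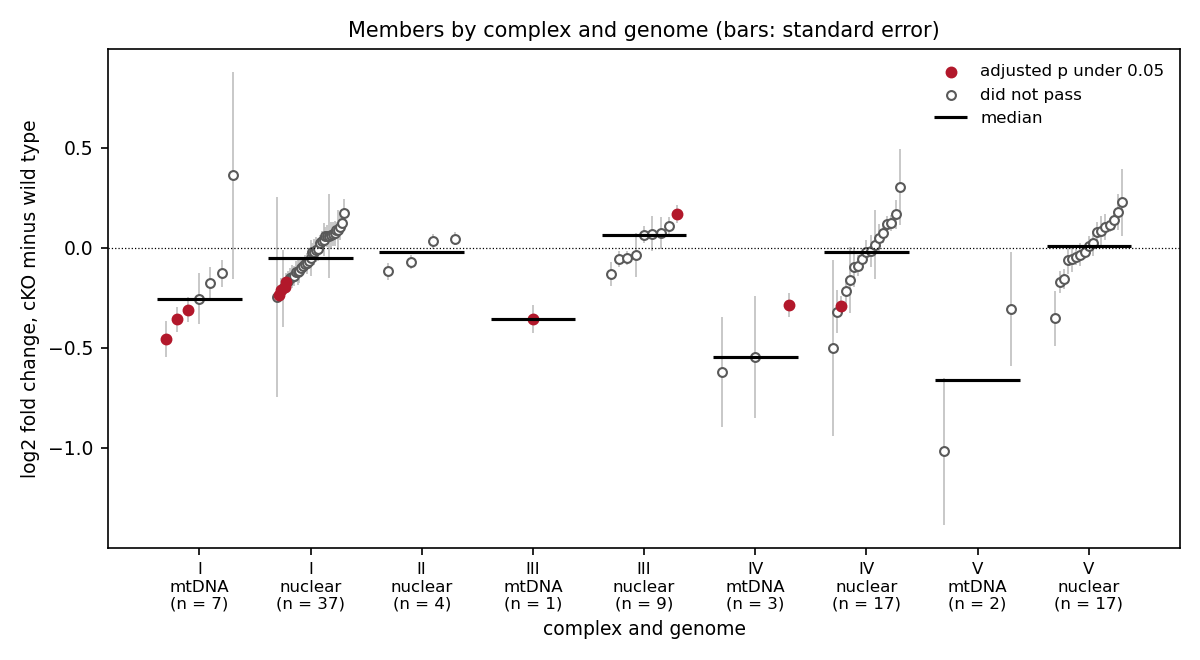
Log2 fold change (cKO minus wild type, log2(FPKM + 0.1) scale) of the 97 tested members by complex and genome, with bars of 1 SE, filled points for adjusted p under 0.05 and a line at each median. The mitochondrial members of complexes I, III, IV and V have medians below 0, while the nuclear medians lie between -0.05 and 0.07.

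Of the 37 nuclear subunits of complex I, 4 fell (10.8%, beside 7.83% of all tested genes), 33 did not pass and none rose, with a median of -0.05. That share is near the 10.3% that fell among protein-coding genes with a mean of at least 10 FPKM. Ndufa10, an accessory subunit of the membrane arm (chr1:92439010-92473860, minus strand), was listed at 34.3, 34.7 and 33.4 FPKM in wild type and at 29.6, 28.7 and 28.7 in cKO, a log2 fold change of -0.24 (SE 0.038, limma adjusted p = 0.00639). Ndufv2, an iron-sulfur subunit of the NADH-oxidising arm (chr17:66078638-66101559, minus strand), was listed at 65.8, 65.7 and 66.5 FPKM and at 55.9, 58.8 and 58.1 (-0.20, SE 0.036, adjusted p = 0.0107). Neither pair of groups overlapped, and both calls held with each library left out in turn. Ndufa1, a small subunit encoded on the X chromosome, was listed at 127, 108 and 119 FPKM against 101, 104 and 101 (-0.21, adjusted p = 0.0444). Ndufs4, needed for a stable complex, was listed at 24.0, 24.1 and 24.6 FPKM against 20.3, 22.3 and 22.01 (-0.17, adjusted p = 0.0444). The groups did not overlap for either of these, but both calls were near the threshold. Without the second wild-type library Ndufa1 passed at 0.0239, and leaving out any of the other 5 libraries gave 0.0749 to 0.127. Ndufs4 did not pass without any 1 of the 6 libraries (0.0576 to 0.134).

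Several nuclear core subunits of complex I did not pass. Ndufs1, which holds iron-sulfur clusters, stood at 15.7, 15.7 and 15.9 FPKM in wild type and 13.8, 14.8 and 13.5 in cKO (-0.17, adjusted p = 0.055), with no overlap. The flavin-binding Ndufv1 (88.4 ± 2.64 against 82.4 ± 2.03 FPKM, SD, n = 3) had an adjusted p of 0.119. Ndufs3, Ndufs7 and Ndufs8 had log2 fold changes of -0.02, 0.06 and 0.02, with adjusted p from 0.445 to 0.789. The 2 nuclear complex I members with all cKO libraries above wild type were Ndufa7 and Ndufc2, at 0.17 and 0.09 with adjusted p = 0.122 and 0.166. Within the complex, levels ran from a mean of 1.98 FPKM for Ndufb2 to 159 for Ndufa2, so messages for subunits of 1 complex differed widely in abundance.

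Complex II, whose 4 subunits are all nuclear, had no member that passed. The smallest p was that of Sdhc, a membrane anchor, at 41.3, 39.7 and 41.7 FPKM in wild type and 38.2, 38.7 and 36.2 in cKO (-0.12, SE 0.042, adjusted p = 0.0978). The groups did not overlap for Sdhc, nor for the iron-sulfur subunit Sdhb (70.9, 72.0 and 69.5 FPKM against 68.9, 66.0 and 67.2, -0.07, adjusted p = 0.214). The catalytic flavoprotein Sdha had all cKO libraries slightly above wild type (75.9 ± 0.585 against 78.3 ± 0.65 FPKM, SD, n = 3, adjusted p = 0.393). The anchor Sdhd stood at 0.03.

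Complex III held the nuclear member that rose, 1 of its 9 tested (11.1%, beside 7.65% of all tested genes). Uqcrfs1, the Rieske iron-sulfur protein (chr13:30540308-30545362, minus strand), was listed at 71.3, 67.1 and 71.5 FPKM in wild type and at 75.8, 82.8 and 77.3 in cKO, a log2 fold change of 0.17 (SE 0.047, limma adjusted p = 0.0453). All 3 cKO libraries were higher than the 3 wild-type libraries, but the call was at the edge: it held without the first cKO library (0.0368) and was lost without any other (0.0817 to 0.156). The 8 other nuclear subunits of complex III did not pass and lay between -0.13 (Uqcrq) and 0.11 (Uqcrc1), with the electron carrier Cyc1 at -0.05. Uqcrfs1 thus moved in the opposite direction to mt-Cytb, a redox subunit of the same complex.

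Complex IV had 1 nuclear member that fell among 17 tested (5.88%, beside 7.83% of all tested genes), and none rose. Cox5a, a matrix-side subunit (chr9:57521274-57532426, plus strand), was listed at 33.9, 36.2 and 33.9 FPKM in wild type and at 29.4, 28.2 and 27.4 in cKO, a log2 fold change of -0.29 (SE 0.046, limma adjusted p = 0.00606). The groups did not overlap, the call held with each library left out, and the adjusted p was the lowest of all members. Cox5b, the other subunit of that name, stood at -0.02 (adjusted p = 0.843). Under the fit with GC content, length and a replicate block, Cox5a (adjusted p = 0.0702) and Ndufv2 (0.0897) did not pass, and Ndufa10 (0.0201) and mt-Nd6 (0.0318) did.

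In the ATP synthase none of the 17 nuclear members tested passed, and the median was 0.01. The 2 with the smallest p were Atp5a1, the alpha subunit of the catalytic head, at 281, 279 and 276 FPKM in wild type and 302, 309.6 and 293 in cKO (0.11, SE 0.035, adjusted p = 0.0634), and Atp5f1, part of the peripheral stalk, at 61.5, 61.2 and 61.9 against 50.1, 56.4 and 57.6 (-0.17, SE 0.055, adjusted p = 0.0714). The groups did not overlap in either, with cKO above for the first and below for the second. Both passed with voom (adjusted p = 0.00695 and 0.00483) and with GC content and length (0.0127 and 0.0474). In those fits 2 complex V members rose and 3 fell, and 2 rose and 1 fell. The catalytic beta subunit Atp5b (230 ± 3.16 against 227 ± 6.13 FPKM, SD, n = 3) and the central stalk subunit Atp5c1 (204 ± 4.97 against 206 ± 11.2) stood at -0.02 and 0.01. Atp5l was listed at 11.8 FPKM in wild type while its near-identical copies were listed at 73.8 in all, so its own level is uncertain. Atp5h, Ndufs3 and Uqcrb also have copies at least 98% identical over more than 50% of the message.

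**Figure D4:**
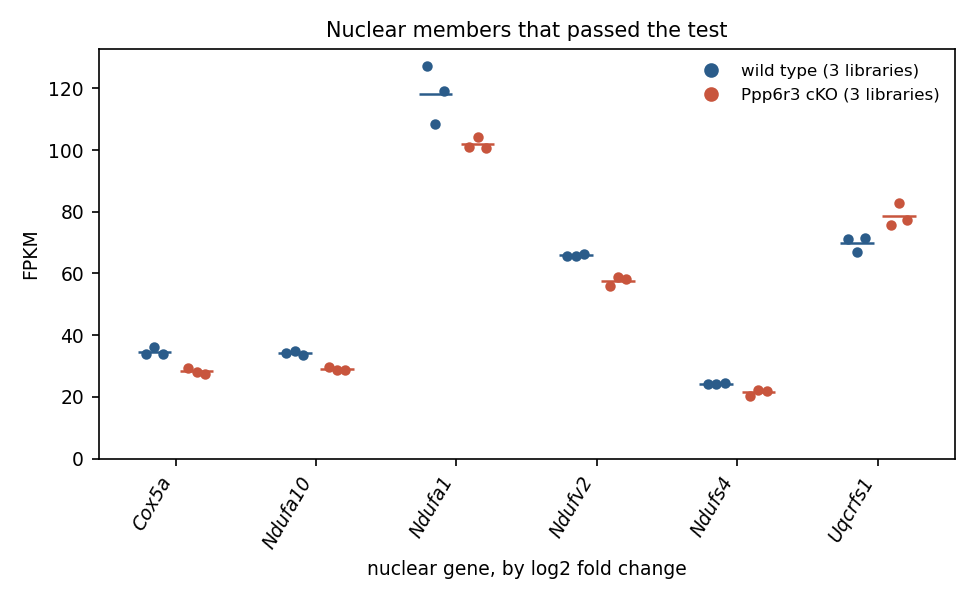
FPKM of the 6 nuclear members with an adjusted p under 0.05, 1 point per library and a line at each group's mean. In Cox5a, Ndufa10, Ndufa1, Ndufv2 and Ndufs4 all cKO points lie below the wild-type points, and in Uqcrfs1 they lie above.

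Several subunits exist as tissue forms encoded by separate genes. In the Cox4, Cox6a, Cox7a and Cox8 families the form found in most tissues was far above the lung or muscle form. Cox4i1 was at 275 ± 6.07 FPKM in wild type and 300.2 ± 12.9 in cKO (SD, n = 3), beside 2.68 ± 0.193 and 2.77 ± 0.763 for Cox4i2, the form known from lung. Cox6a1 was at 392 ± 25.6 and 412 ± 6.04 FPKM, and the heart and muscle form Cox6a2 at 1.05 ± 0.142 and 0.819 ± 0.484. Cox7a2 was at 116 ± 0.993 and 100.1 ± 10.3, and the muscle form Cox7a1 at 10.4 ± 0.864 and 9.42 ± 2.26. Cox8a was at 256 ± 21.3 and 288 ± 22.3, beside 0.794 ± 0.216 and 0.632 ± 0.435 for the muscle form Cox8b. The 6 muscle markers summed to 134 to 142 FPKM in wild type and 101 to 113 in cKO, and 2 of the 3 tested fell. Nearly all of that sum was Tnni3, while Ckm, Myh1, Myh4 and Myl2 were all under 1 FPKM on average.

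The germ cell forms were measurable and none passed the test. Cox6b2, known as a testis form, was at 15.4, 12.7 and 11.98 FPKM in wild type and 12.8, 11.3 and 13.2 in cKO (log2 fold change -0.10, adjusted p = 0.559), against 152 ± 3.93 and 147 ± 4.7 for Cox6b1. Cox7b2 was at 16.7, 18.6 and 21.1 FPKM in wild type and at 13.1, 15.7 and 16.3 in cKO (-0.32, SE 0.11, adjusted p = 0.086). Cox7b2 had no overlap between groups and came closest in level to its common form, Cox7b, at 27.1 ± 0.732 and 28.1 ± 2.81. Cox8c was at 3.81, 4.34 and 4.37 against 4.93, 3.96 and 7.04 (0.30, adjusted p = 0.323), with overlap. The testis cytochrome c Cyct, not a member, stood at 0.08 and the somatic Cycs at -0.09, neither passing. The 3 genes Atp5g1, Atp5g2 and Atp5g3, which encode the same mature c subunit of the ATP synthase, were at 24.8, 87.2 and 79.3 FPKM in wild type and 25.2, 84.1 and 83.9 in cKO, with adjusted p from 0.305 to 0.852. Ndufa4, counted with complex I by its name but known to sit in complex IV, was at 67.6 and 67.3 FPKM, and Ndufa4l2, a form known from low oxygen, at 3.06 and 3.09. Cox7a2l, a factor of respiratory supercomplexes, was at 184, 189 and 193 FPKM against 206, 197 and 212 (0.12, adjusted p = 0.0816), with all cKO libraries above.

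**Figure D5:**
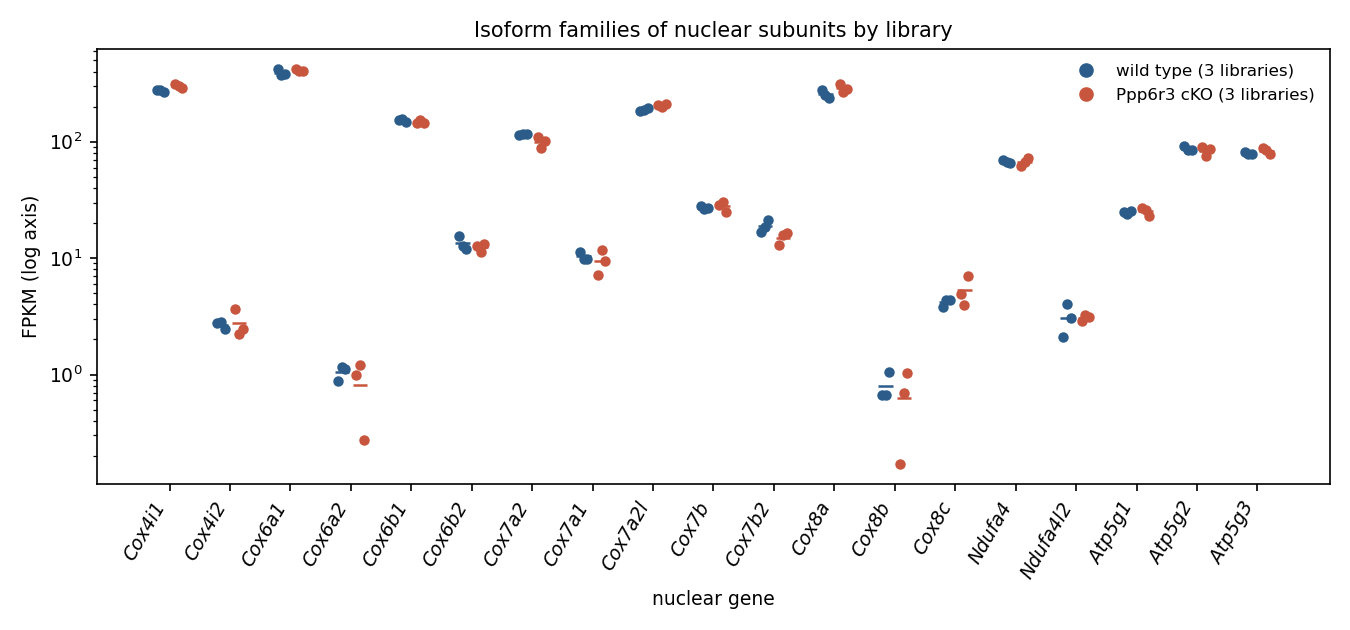
FPKM (log axis) of members that exist as tissue forms, 1 point per library and a line at each group's mean. The common forms Cox4i1, Cox6a1, Cox6b1, Cox7a2 and Cox8a lie at 89.1 to 422 FPKM and the forms Cox4i2, Cox6a2, Cox7a1 and Cox8b at 0.169 to 11.7, with wild-type and cKO points side by side.

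The members also differed in how far the libraries of 1 group scattered. In wild type the coefficient of variation was 0.687% to 3.07% for mt-Nd1, mt-Nd2, mt-Nd4, mt-Nd5, mt-Nd6, mt-Cytb and mt-Co1, which have no copy over their whole length. It was 23.8% to 32.8% for mt-Atp6, mt-Nd4l, mt-Co3 and mt-Co2, which have one, but 2.88% for mt-Nd3, which has one too. For mt-Atp8, which rests on few fragments and has no annotated copy over its whole length, it was 26.5%. Among nuclear members the largest was that of Ndufa12, at 17.9, 9.60 and 8.74 FPKM in wild type and 18.1, 6.38 and 7.74 in cKO. The first library of each group was about as high as the other, and the remaining libraries were lower, so the difference between libraries of a group exceeded any between groups. The 7 mitochondrial messages named first scattered more in cKO, at 8.63% to 13.7%.

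A feature of the nuclear members that the choice did not use is their promoter sequence. RefSeq windows of 300 bases around the start (250 before and 50 after, GRCm38.p6) were found for 66 of the 86. The palindromic NRF1 motif, spelled out in capitals in the lines that follow, was present in 5 of the 66 (7.58%) against 1.07% of 27025 genes, and the YY1 motif AAGATGGCG, on either strand, in 7 (10.6%) against 1.64%. These backgrounds take in every gene with a window and were not matched for gene type, expression or base composition. The ETS motif CCGGAAGTG, read by GABP, was present in 2 (3.03%) against 2.25%. The CREB motif TGACGTCA, a palindrome, was present in 4 (6.06%) against 2.03%. It was added after sequences of members, among them those that passed, had been seen, so this share is not independent of that choice. The pair of NRF1 matches that lie wholly before the annotated GENCODE start are printed here with the motif in capitals, 5′ to 3′ on the strand of the gene. Cox6a1 is the highest nuclear member (chr5:115349086-115349145, minus strand) and Ndufa11 a membrane-arm subunit of complex I (chr17:56717677-56717736, plus strand).
Cox6a1: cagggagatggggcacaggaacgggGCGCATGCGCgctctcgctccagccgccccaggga
Ndufa11: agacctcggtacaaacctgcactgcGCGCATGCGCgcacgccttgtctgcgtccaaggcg
A match is a description of letters, not of binding. None of the 5 genes with the NRF1 motif (Atp5g2, Atp5k, Cox6a1, Ndufa11 and Uqcrc1) passed the test, and of the 7 with the YY1 motif Ndufs4 fell. The CREB motif was in the windows of Ndufa10, which fell, and of Uqcrfs1, which rose, as well as Ndufa11 and Ndufb2, which did not pass. Because of how that motif was chosen, nothing is drawn from these matches.

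Genes that serve these complexes were taken from lists of assembly factors, mitochondrial transcription, DNA replication and fuel supply. Among the assembly factors, 4 of 44 tested fell (9.09%), near the 7.83% of all tested genes. For complex I these were 2 of 14, Ecsit (log2 fold change -0.38, limma adjusted p = 0.00424) and Foxred1 (-0.37, adjusted p = 0.00466). For complex III 1 of 6 fell, Bcs1l (-0.42, adjusted p = 0.00657), the AAA protein that inserts the Rieske protein Uqcrfs1. For the ATP synthase 1 of 3 fell, Atpaf2 (-0.27, adjusted p = 0.00731). None of 4 for complex II or of 17 tested for complex IV passed. No assembly factor rose, the 4 that fell had no overlap between groups, and these 4 calls held with each library left out in turn. The median log2 fold change was -0.07 for complex I factors, -0.08 for complex III, -0.25 for the 3 of the ATP synthase and -0.02 for complex IV.

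Of 26 genes for mitochondrial transcription and RNA, 3 fell and none rose, with a median of 0.00. With so few genes, this and the counts that follow are read beside the 7.83% of all tested genes that fell and the 7.65% that rose, and nothing particular to these lists is drawn from them. The 3 were Fastkd5 (-0.43, limma adjusted p = 0.0322) and Fastk (-0.23, adjusted p = 0.0289), of a family that processes or stabilises mitochondrial RNAs, and the helicase Supv3l1 (-0.23, adjusted p = 0.0106), a partner in mitochondrial RNA decay. Fastk is known to be needed for stable mt-Nd6 RNA. The packaging and transcription factor Tfam (0.08), the polymerase Polrmt (0.01) and Lrpprc, which keeps mitochondrial messages stable, did not pass. Of 8 genes of mitochondrial DNA replication Top1mt (-0.37, adjusted p = 0.00838) and Rnaseh1 (-0.27, adjusted p = 0.0234) fell. Of 9 regulators of these genes in the nucleus Pprc1, a PGC-1 related coactivator, rose (0.19, adjusted p = 0.0382). Of 13 genes of the TCA cycle Cs (-0.14, adjusted p = 0.0382) and Sucla2 (-0.18, adjusted p = 0.0237) fell, and of 7 tested for uncoupling and other electron donors none passed. The medians of these last 4 lists were -0.07, 0.07, -0.05 and -0.05. With each library left out in turn, Supv3l1 and Top1mt passed in all 6 fits. Rnaseh1 and Sucla2 passed in 2 (adjusted p up to 0.0815 and 0.0791), and Fastkd5, Fastk, Pprc1 and Cs passed in 1 (up to 0.111, 0.0853, 0.116 and 0.131).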

How the data were processed

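Poly(A) RNA of whole testis was sequenced in 6 libraries, 3 per genotype. Per the series' design text, reads were aligned to mm10 with HISAT2 2.0.5; DESeq2 is also named in the submitters' processing notes. A stranded kit was used, per the labels' protocols. Counting tool, strand setting and annotation release: not given in the sources used here. The authors deposited FPKM, although the table is named for counts; so the planned count test was replaced by limma 3.58.1 (R 4.3.3, trend and robust, 2-sided) on log2(FPKM + 0.1), which understates the change of low genes. The Benjamini-Hochberg adjustment ran over 17673 genes, those with 10 or more recovered fragments in 3 or more libraries.

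Fragments were recovered from the steps of the deposited FPKM with GENCODE M21 exon lengths (tolerance 0.01), which gave whole numbers for 97.0% of the 32589 genes above 0, and from another fitting length for 964 more. For members this held with the GENCODE length for 92 of the 98 above 0. Recovered fragments summed to 101.5% to 103.3% of the inferred depth, so depth is an inference. Replicates differed by more than sampling noise, with a chi-square per degree of freedom of 2.23 to 4.29. Copies were found with BLAST 2.17.0 against GENCODE transcripts.

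The members and lists were chosen with earlier results of these data known. The genes named in the text were the 13 mitochondrial members, in each complex the nuclear members that passed (or the 2 with the smallest p), the tissue forms, and up to 3 passing genes of each list; Uqcrhl matched no member. Others that are named (Cox5b, Cyc1, Sdha, Sdhd, Atp5b, Atp5c1, Ndufs1, Ndufs3, Ndufs7, Ndufs8, Ndufv1, Ndufa7, Ndufc2, Ndufb2, Ndufa2, Ndufa12, Uqcrq, Uqcrc1, Tfam, Polrmt, Lrpprc, Hsd3b1, Cyp17a1, Insl3, Star) were added after their values were seen. Alternatives were other scalings, filters and pseudocounts, voom on the recovered fragments, subtracting each library's trends with GC content and length, a replicate block, leaving out each library, and adding the fragments of copies. The fit was tested on simulated data.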

Additional observations from a re-analysis of the deposited data

How the results depend on the processing

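No called result changed direction under any alternative run. The count of mitochondrial members that fell, 5, was 2 with voom or without robust estimation, 3 after quantile normalization, 1 with GC content and length (with or without the replicate block), 1 at an adjusted p under 0.01, and 1 to 7 with a library left out. The 5 nuclear members that fell were 10 with voom, 8 when scaled to nuclear fragments, 3 with no filter, 1 with GC content, length and the replicate block, 2 at 0.01, and 3 to 5 with a library left out. The nuclear member that rose was joined by others to make 7 with voom, 9 with GC content and length and 11 with the block added, and the count was 0 when scaled to nuclear fragments, after quantile normalization, with no filter, with a minimum of 0.5 FPKM, with the replicate block alone, and at 0.01, and 0 to 2 with a library left out. So the split of member calls, 1 up and 10 down, was 9 and 6 with GC content and length, and 7 and 12 with voom. Over all genes, 1384 fell and 1352 rose; with no filter these were 768 and 740, at 0.01 they were 471 and 418, voom gave 2102 that rose, and leaving out a library gave 638 to 1277 and 597 to 1121. The median mitochondrial log2 fold change, -0.31, was -0.15 with GC content and length (with or without the block) and -0.40 to -0.25 with a library left out. The nuclear median, -0.02, was 0.031 with GC content and length (with or without the block) and -0.045 to 0.014 with a library left out. The ratio of the mitochondrial sums, 0.81, ran from 0.774 to 0.852. The cause of these moves was not tested. Whether the shared replicate numbers pair the libraries was not settled. The correlations of same-numbered deviations were 0.016, -0.006 and -0.006, and with so few libraries these cannot exclude a pairing. The replicate block gave 0 members that rose and 10 that fell, with 1092 and 1100 over all genes. Low fragment counts limit mt-Atp8, Cox8b and Cox6a2.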
